A study of Mus musculus with 6 samples.

Results

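The 10 genes described here mark T cells and cytotoxic lymphocytes, and were picked by symbol: *Cd3d*, *Cd3e*, *Cd3g*, *Cd4*, *Cd8a*, *Foxp3*, *Gzma*, *Gzmb*, *Nkg7* and *Il7r*. All 10 were found among the 17778 genes with expression values from mouse colon. The colon came from 3 obesity-prone (OP) mice and 3 obesity-resistant (OR) mice, with 1 library per mouse. These were all wild-type male C57BL/6J mice that ate a high-fat diet (60% fat) for 16 weeks, and they were 21 weeks of age at collection. The groups are not genotypes or treatments: from 42 mice on this diet, the 10 with the highest weight gain were defined as OP and the 10 with the lowest as OR. No colon of mice on a normal diet was analysed here, so each difference is one between OP and OR mice on the high-fat diet.

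T cells recognise antigen through a receptor whose signal is carried into the cell by the CD3 chains. The co-receptors CD4 and CD8 divide helper and regulatory T cells from mostly cytotoxic ones, which kill target cells with granule proteases called granzymes. In the gut, many CD8-positive lymphocytes sit between the epithelial cells and hold granzymes, whereas helper cells, regulatory T cells and innate lymphoid cells are mostly found in the lamina propria beneath. Expression is given as FPKM, a fragment count scaled by transcript length and by library size, which lets levels of different genes be set side by side.

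In the 6 mice the 10 genes showed a common order. OP mouse 1 and OP mouse 2 had lower values than all 3 OR mice in 10 of 10 genes (23.1% of all genes tested showed this), while OP mouse 3 was never below the lowest OR mouse. The lowest value of all belonged to OP mouse 1 or 2 in 10 of 10 members and in 71.7% of all genes tested. The top value belonged to OP mouse 3 in 7 genes, to OR mouse 3 in 2 genes and to OR mouse 1 in 1 gene. Summed over the 10 genes, expression was 21.3, 35.1 and 87.3 FPKM in OP mice 1, 2 and 3, and 73.4, 62.1 and 90.2 FPKM in OR mice 1, 2 and 3. The mean of the OP mice was therefore below that of the OR mice in every one of the 10 genes, but the groups overlapped in all of them. By limma-trend on log2(FPKM + 1), with Benjamini-Hochberg adjustment over the 13520 genes with at least 0.5 FPKM in at least 3 mice, 0 of the 9 members tested were called different. The 10th, *Foxp3*, was under that filter, so it is in the counts over 10 genes but not in the shares over all genes tested. In bulk tissue such as this, fewer cells of a type and less RNA per cell cannot be told apart.

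**Figure D1:**
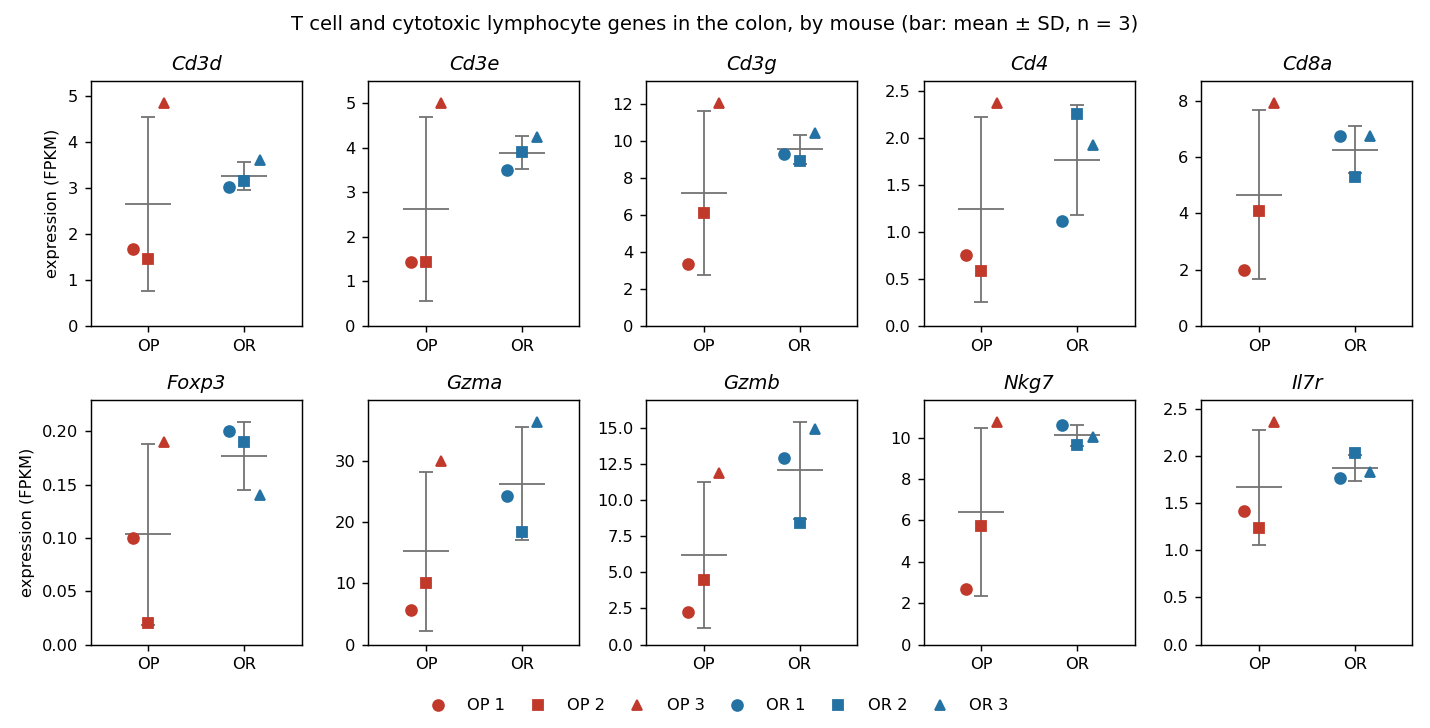
Expression (FPKM, linear axis from 0) of the 10 genes in each of the 6 mice, with 1 panel per gene. Circles, squares and triangles are mice 1, 2 and 3, red for OP and blue for OR, and the grey bars give the mean ± SD (n = 3). OP mice 1 and 2 lie below the OR mice in every panel, and OP mouse 3 lies among or above them.

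The libraries themselves were alike in scale but not in composition. The FPKM values of a mouse summed to between 585349.9 and 600028, over 16287 to 16619 genes with any expression. Read depth is unknown, since FPKM keeps no totals: the lowest value above 0 was 0.01 in this table of 2 decimals, and the 1065 to 1319 values per mouse that lay between 0 and 0.1 have a single digit, too coarse to find the steps of single reads. Median-of-ratios factors were 0.803, 0.991 and 1.09 for OP mice 1, 2 and 3 and 1.11, 0.983 and 1.06 for OR mice 1, 2 and 3. Dividing by these factors raises OP mouse 1 against the other mice. *Il7r* of OP mouse 1 then lies above OR mice 1 and 3, so OP mice 1 and 2 were below all OR mice in 10 of 10 members on the FPKM scale only. OP mouse 1 held the lowest value of the 6 mice in 7355 of the 13520 genes tested. The 10 epithelial marker genes, among them *Epcam* and *Vil1*, summed to between 11531.5 and 25036.5 FPKM, as the label colon implies. Much of the spread of these sums was the single gene *Car1*.

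The calls were read against all genes tested. The thresholds for a call, taken from the study's methods, were a q-value below 0.2 together with a fold change reaching 1.2 upward or 0.83 downward. By this rule 0.0222% of the genes tested were called lower in OP mice (3 genes) and 0% higher, and 0 members were among them. At an unadjusted limma p below 0.05, 3.53% of the genes tested were lower in OP mice, and again 0 of the 9 members. Every OP mouse was below every OR mouse in 6.81% of the genes tested and in 0 of the 10 members. The median log2 fold change (OP minus OR, on the log2(FPKM + 1) scale, which understates the change of low genes) was -0.51 over the 9 members and -0.10 over all genes tested. All 9 members and 70.1% of all genes tested (9475) had a negative fold change. That excess depended on the scaling: with median-of-ratios scaling 6490 of the 13520 genes were negative, against 9 of 9 members, and the genes at an unadjusted p below 0.05 went from 477 lower and 68 higher to 423 lower and 153 higher.

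The 3 CD3 chains are present in every T cell, with *Cd3g*, *Cd3d* and *Cd3e* encoding the gamma, delta and epsilon chain. *Cd3d* and *Cd3g* are neighbours on chromosome 9 on opposite strands, with starts 1355 bases apart in RefSeq, and *Cd3e* lies near them. The windows around their start sites, from 250 bases before the start to 50 after it, are shown because the 3 genes varied together between mice. They come from RefSeq (build GRCm38.p6, which is not the build that the authors name), at chr9:44981536-44981835 on the plus strand for *Cd3d*, chr9:45009562-45009861 on the minus strand for *Cd3e* and chr9:44980382-44980681 on the minus strand for *Cd3g*. Capitals mark matches, on either strand, to AGGAAG (ETS factors), TGTGGT (RUNX factors), TGANTCA (AP-1) and CAGCTG (E-box), which do not overlap in these windows.
Cd3d: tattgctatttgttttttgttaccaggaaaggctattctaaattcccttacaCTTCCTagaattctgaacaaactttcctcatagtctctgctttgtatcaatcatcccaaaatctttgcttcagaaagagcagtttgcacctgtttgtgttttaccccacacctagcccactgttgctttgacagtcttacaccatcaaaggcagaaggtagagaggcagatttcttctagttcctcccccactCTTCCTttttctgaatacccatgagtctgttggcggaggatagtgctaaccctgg
Cd3e: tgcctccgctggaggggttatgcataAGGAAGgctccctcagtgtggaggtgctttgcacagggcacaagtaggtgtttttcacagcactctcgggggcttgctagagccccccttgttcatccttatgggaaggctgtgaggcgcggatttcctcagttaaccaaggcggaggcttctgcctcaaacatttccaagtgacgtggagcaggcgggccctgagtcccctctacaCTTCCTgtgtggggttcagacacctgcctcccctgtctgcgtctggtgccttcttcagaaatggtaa
Cd3g: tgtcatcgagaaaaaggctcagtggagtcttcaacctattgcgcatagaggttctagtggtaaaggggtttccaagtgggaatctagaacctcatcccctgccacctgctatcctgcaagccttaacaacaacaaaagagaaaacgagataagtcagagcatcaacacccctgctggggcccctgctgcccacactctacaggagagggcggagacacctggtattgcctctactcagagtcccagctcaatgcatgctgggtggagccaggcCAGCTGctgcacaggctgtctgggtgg
*Cd3d* and *Cd3e* each held 2 AGGAAG matches, while *Cd3g* held none and had 1 CAGCTG match. Over all 32851 RefSeq windows of this length, 35.4% held AGGAAG and 16.3% held CAGCTG, so these letters are common and a match describes the sequence only.

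*Cd3e* had 1.43, 1.44 and 5 FPKM in OP mice 1, 2 and 3 and 3.51, 3.91 and 4.25 FPKM in OR mice 1, 2 and 3. The first 2 OP mice lay well below every OR value, whereas OP mouse 3 was the highest of the 6. Its mean was 2.62 ± 2.06 FPKM (SD, n = 3) in OP mice and 3.89 ± 0.370 FPKM (SD, n = 3) in OR mice, and the log2 fold change came to -0.57 (standard error 0.36, adjusted p = 0.945 by limma). *Cd3d* showed the same arrangement, with 1.67, 1.45 and 4.84 FPKM in the OP mice and 3.03, 3.15 and 3.6 FPKM in the OR mice. For this chain the fold change was -0.34 on the log2 scale (standard error 0.34, adjusted p = 0.945 by limma). *Cd3g* was the most abundant of the 3 chains, with 3.36, 6.1 and 12.02 FPKM in the OP mice and 9.3, 8.91 and 10.43 FPKM in the OR mice. Here OP mice 1 and 2 also differed from each other, and the log2 fold change came to -0.51 (standard error 0.37, adjusted p = 0.945 by limma). The spread between OP mice was larger than that between OR mice in all 3 chains: the SD was 1.90 against 0.300 FPKM for *Cd3d* and 4.43 against 0.789 FPKM for *Cd3g*.

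Of the co-receptors, *Cd8a*, which encodes the alpha chain of CD8, was the more abundant in every mouse. It had 2, 4.1 and 7.91 FPKM in OP mice 1, 2 and 3 and 6.75, 5.3 and 6.74 FPKM in OR mice 1, 2 and 3, with a log2 fold change of -0.49 (standard error 0.38, adjusted p = 0.945 by limma). *Cd4*, which marks helper and regulatory T cells and is also carried by some gut macrophages, had 0.76, 0.59 and 2.37 FPKM in the OP mice and 1.12, 2.26 and 1.93 FPKM in the OR mice. Among the OR mice, mouse 1 was the lowest in *Cd4* but not in *Cd8a*. The log2 fold change of *Cd4* was -0.37 (standard error 0.32, adjusted p = 0.945 by limma). Inside a mouse, *Cd8a* was 2.63, 6.95 and 3.34 times *Cd4* for OP mice 1 to 3 and 6.03, 2.35 and 3.49 times for OR mice 1 to 3. This ratio had no order between the groups.

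*Foxp3*, the transcription factor that defines regulatory T cells, was the lowest of the 10 genes, with 0.1, 0.02 and 0.19 FPKM in OP mice 1, 2 and 3 and 0.2, 0.19 and 0.14 FPKM in OR mice 1, 2 and 3. The mean was 0.103 ± 0.0850 FPKM (SD, n = 3) in OP mice and 0.177 ± 0.0321 FPKM (SD, n = 3) in OR mice. A two-sided exact permutation test gave p = 0.3. With 3 mice against 3 its smallest p is 0.1, so it could not detect a difference at any level of expression. Values this low, rounded to 2 decimals, are also coarse. *Il7r*, the receptor chain for interleukin-7, which sustains resting T cells and innate lymphoid cells, had the smallest ratio of highest to lowest value of the 10 genes, at 1.92. It had 1.41, 1.23 and 2.36 FPKM in the OP mice and 1.76, 2.03 and 1.83 FPKM in the OR mice. Its log2 fold change of -0.13 (standard error 0.21, adjusted p = 0.952 by limma) was close to the median of all genes, with a 95% interval from -0.61 to 0.35.

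The cytotoxic genes had the largest differences of means among the members. *Gzma* and *Gzmb* encode granzymes A and B, proteases of the cytotoxic granule, and *Nkg7* encodes a membrane protein of the same granules in natural killer cells and cytotoxic T cells. The start-site windows of the granzymes, taken from RefSeq and marked as above, are shown because the levels of both genes kept nearly the same ratio in all 6 mice. They lie at chr13:113100932-113101231 on the minus strand for *Gzma* and chr14:56262285-56262584 on the minus strand for *Gzmb* (GRCm38.p6).
Gzma: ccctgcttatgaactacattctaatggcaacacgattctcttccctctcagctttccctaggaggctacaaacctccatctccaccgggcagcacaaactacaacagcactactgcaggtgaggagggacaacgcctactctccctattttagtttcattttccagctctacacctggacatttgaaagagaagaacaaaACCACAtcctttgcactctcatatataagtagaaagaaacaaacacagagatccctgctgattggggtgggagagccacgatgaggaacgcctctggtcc
Gzmb: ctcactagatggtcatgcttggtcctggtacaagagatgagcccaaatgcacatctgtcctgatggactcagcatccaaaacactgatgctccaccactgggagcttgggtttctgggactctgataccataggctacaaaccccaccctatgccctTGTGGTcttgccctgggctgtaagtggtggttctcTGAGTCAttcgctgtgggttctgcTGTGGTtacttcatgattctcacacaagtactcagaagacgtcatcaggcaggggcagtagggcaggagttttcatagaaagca
*Gzma* held 1 TGTGGT match, and *Gzmb* held 2 TGTGGT matches and 1 TGANTCA match. Of all windows, 16.8% held TGTGGT and 7.81% held TGANTCA. Windows were found for 9 of the 10 members, of which 4 held TGTGGT, 5 held AGGAAG, 3 held CAGCTG and 1 held TGANTCA. *Cd4* had no window in the table used here.

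*Gzmb* had 2.23, 4.49 and 11.88 FPKM in OP mice 1, 2 and 3 and 12.87, 8.37 and 14.91 FPKM in OR mice 1, 2 and 3. OP mouse 3 was above OR mouse 2 and below the other OR mice. The mean was 6.20 ± 5.05 FPKM (SD, n = 3) in OP mice and 12.1 ± 3.35 FPKM (SD, n = 3) in OR mice, 1.94 times that in OP mice. The log2 fold change of -1.06 (standard error 0.48) had a 95% interval from -2.19 to 0.07, an unadjusted limma p of 0.0630 and an adjusted p of 0.945. *Gzma* was the most abundant of the 10 genes in each mouse, with 5.62, 9.99 and 29.99 FPKM in the OP mice and 24.18, 18.31 and 36.36 FPKM in the OR mice. OR mouse 3 was the highest in both granzymes. For *Gzma* the log2 fold change came to -1.0 (standard error 0.54, adjusted p = 0.945 by limma). *Nkg7* had 2.7, 5.73 and 10.77 FPKM in the OP mice and 10.63, 9.65 and 10.05 FPKM in the OR mice. The 3 OR mice and OP mouse 3 lay close together, apart from the other OP mice, and the log2 fold change came to -0.74 (standard error 0.39, adjusted p = 0.945 by limma). *Gzmc*, a relative of *Gzmb*, was listed at 0 to 0.19 FPKM, and how reads shared between granzyme genes were assigned was not tested.

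Taken gene by gene on the FPKM scale, the means were compared by two-sided exact permutation tests, with p from 0.2 (*Gzmb*) to 0.6 (*Cd3d* and *Il7r*) over the 10 genes. With 3 mice against 3 there are 20 arrangements and the smallest p is 0.1. The 95% interval of the fold change included 0 in each of the 9 members tested; its lower end was between -2.27 and -1.12 for all of them except *Il7r*, so differences of that size could not be told from none.

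Leaving out single mice showed how far the result rested on OP mouse 3. With OP mouse 3 left out, the log2 fold change came to -1.62 for *Gzma*, -1.60 for *Gzmb*, -1.15 for *Nkg7*, -1.0 for *Cd3e*, -0.92 for *Cd3g*, -0.89 for *Cd8a*, -0.73 for *Cd3d*, -0.70 for *Cd4* and -0.31 for *Il7r*. Then 8 of the 9 members had an unadjusted limma p below 0.05, where 8.17% of all genes tested did in the same direction, but the adjusted p stayed between 0.329 and 0.563 and 0 members were called. The remaining OP mice were below all OR mice in 10 of 10 members as before. With OR mouse 2 left out, every OP mouse was below every OR mouse in 1 of 10 members (*Gzmb*) and in 20.2% of the genes tested. With OP mouse 1 left out instead, the fold changes lay nearer to 0 in all 9 members, at -0.60 for *Gzmb* and -0.10 for *Cd8a*. With OP mouse 2 left out, *Il7r* was at -0.01 and *Cd3d* at -0.11.

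**Figure D2:**
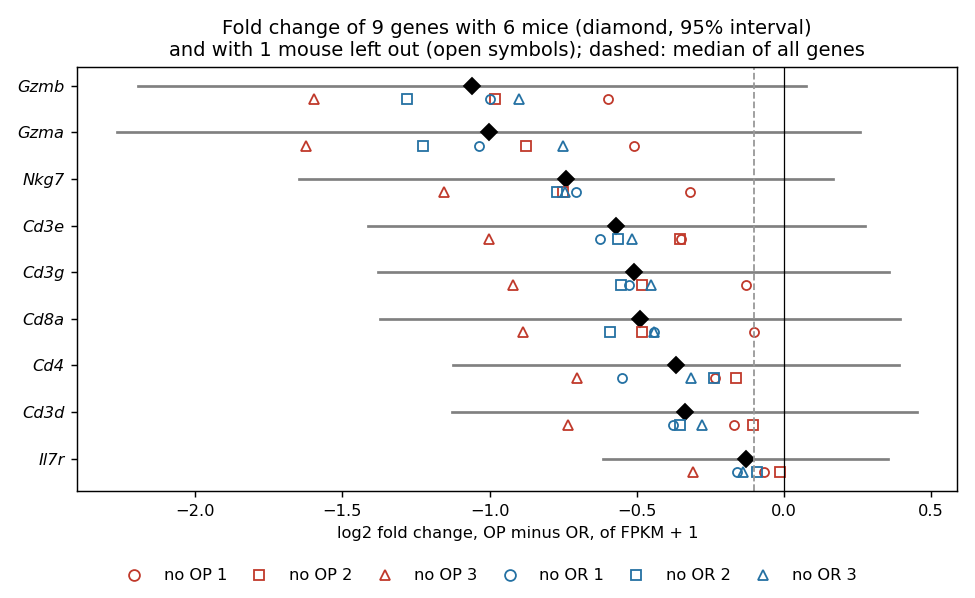
Log2 fold change (OP minus OR, of FPKM + 1) of the 9 members tested, with black diamonds and grey 95% intervals for the fit to all 6 mice and open symbols for fits without 1 mouse. The dashed line is the median of all genes tested (-0.10). Each interval crosses 0, and the red open triangle, the fit without OP mouse 3, lies farthest to the left for all 9 genes.

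The levels of the 10 genes also fell into an order that was shared between mice. *Gzma* (mean of the 6 mice 20.7 FPKM) was above *Gzmb* (9.13 FPKM) in 6 of 6 mice. *Gzmb*, *Cd3g* (8.35 FPKM) and *Nkg7* (8.26 FPKM) were not separated: *Gzmb* exceeded *Cd3g* in 2 of 6 mice and *Cd3g* exceeded *Nkg7* in 4 of 6. *Nkg7* was above *Cd8a* (5.47 FPKM), *Cd8a* above *Cd3e* (3.26 FPKM), and *Cd3d* (2.96 FPKM) above *Il7r* (1.77 FPKM) in all 6 mice. *Cd3e* and *Cd3d* exchanged places, as did *Il7r* and *Cd4* (1.51 FPKM, with *Il7r* higher in 3 of 6 mice), and *Foxp3* (0.14 FPKM) was below *Cd4* in every mouse.

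Ratios between genes inside a mouse were computed to see which members moved by equal factors. The 15 ratios computed were chosen after the values had been seen and are descriptions without a test. In 4 of the 15 the groups did not overlap (*Cd3d* over *Cd3e*, *Gzmb* over *Cd8a*, and *Cd3e* and *Gzmb* over *Ptprc*), and the share for pairs of other genes was not computed. *Gzma* over *Gzmb* was 2.52, 2.22 and 2.52 in OP mice 1, 2 and 3 and 1.88, 2.19 and 2.44 in OR mice 1, 2 and 3, a range of 1.34 times in which *Gzma* itself ranged over 6.47 times. *Gzmb* over *Cd8a* did not overlap, with 1.115, 1.095 and 1.502 for the OP mice and 1.91, 1.58 and 2.21 for the OR mice. Relative to *Cd3e*, the groups overlapped for *Gzmb*, with 1.56, 3.12 and 2.38 (OP) and 3.67, 2.14 and 3.51 (OR). *Cd3d* over *Cd3e* was 1.17, 1.01 and 0.968 for the OP mice and 0.863, 0.806 and 0.847 for the OR mice. That difference was small but separated the groups.

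**Figure D3:**
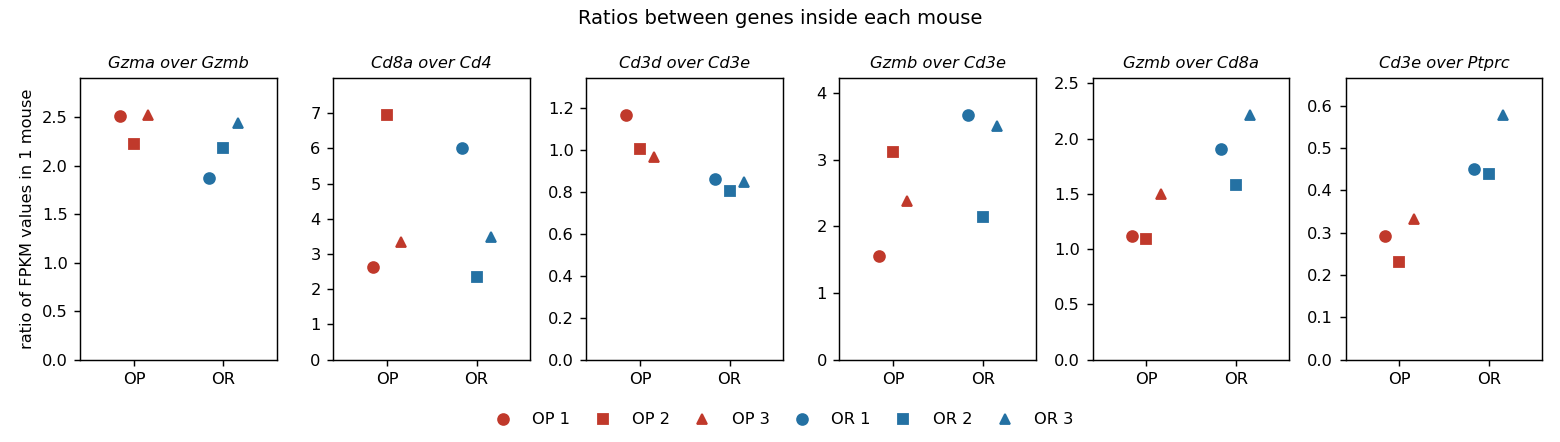
Ratios of FPKM values inside each mouse (linear axes from 0), with circles, squares and triangles for mice 1, 2 and 3, red for OP and blue for OR. *Gzma* over *Gzmb* is nearly level over the 6 mice, while the OP and OR mice do not overlap in *Gzmb* over *Cd8a*, *Cd3d* over *Cd3e* and *Cd3e* over *Ptprc*.

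Markers shared by all leukocytes and markers of B cells set OP mouse 3 apart. The 8 genes shared by all leukocytes summed to 68.1, 59.3 and 224 FPKM in OP mice 1, 2 and 3 and to 109, 111 and 106 FPKM in OR mice 1, 2 and 3, and OP mouse 3 was the highest in 8 of 8. *Cd79a*, a signalling chain of the B cell receptor, had 5.67, 3.05 and 39.83 FPKM in the OP mice and 5.34, 3.51 and 4.2 FPKM in the OR mice. The 7 of 12 B cell and follicle markers that passed the filter were all higher in the OP mean, opposite to the members, with a median log2 fold change of 0.80. Over the 12 markers the sum was 135 to 721 FPKM in OP mice and 201 to 311 FPKM in OR mice, but most of it was *Cd74* (710.36 FPKM in OP mouse 2), which other cells also express. No marker of the list was at 0 in all 6 mice, and 0 of the 7 were called. Of the 7 tested, 6 were highest in OP mouse 3, the exception being *Cd74*, while the T cell and cytotoxic genes of that mouse stood near or above the level of the OR mice. Their part in the values of the 10 members was not tested.

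Set against *Ptprc*, which encodes CD45 and is carried by all leukocytes, some members separated the groups, OP mouse 3 included. *Ptprc* had 4.91, 6.25 and 15.05 FPKM in OP mice 1, 2 and 3 and 7.77, 8.93 and 7.35 FPKM in OR mice 1, 2 and 3. *Cd3e* over *Ptprc* was 0.291, 0.230 and 0.332 for the OP mice and 0.452, 0.438 and 0.578 for the OR mice. *Gzmb* over *Ptprc* was 0.454, 0.718 and 0.789 for the OP mice and 1.66, 0.937 and 2.03 for the OR mice. Every OP mouse was below every OR mouse in 6 of the 10 members (*Cd3d*, *Cd3e*, *Cd3g*, *Gzma*, *Gzmb* and *Nkg7*), where 2.8% of the other genes tested showed this after the same division. *Cd4*, *Cd8a*, *Foxp3* and *Il7r* overlapped. This denominator was chosen after the values had been seen, and it includes the B cells and macrophages whose own markers differed between the mice. *Ptprc* was itself lowest in OP mice 1 and 2 and highest in OP mouse 3. The division therefore raised OP mice 1 and 2 and lowered OP mouse 3, against the OR mice, in every gene. Without it the share over all genes tested was 6.81%. The 2.8% is thus no background for genes that follow leukocytes, and the 6 of 10 is a description only.

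Other genes of T cells and cytotoxic cells were examined from 8 lists, and 0 of their genes were called. The counts of genes lower in OP mice, here and in the marker lists, stand beside 70.1% of all genes tested. Many of the counts are near that share, which was lower under median-of-ratios scaling (6490 of 13520 genes). The lists were not recomputed with that scaling. Of 20 genes of the T cell receptor and its signalling, 12 were tested, 10 of them lower in OP mice (median log2 fold change -0.25). *Thy1*, a surface protein of T cells and also of fibroblasts, had 4.95, 6.13 and 11.68 FPKM in the OP mice and 13.05, 9.26 and 12.3 FPKM in the OR mice, with a log2 fold change of -0.61 (standard error 0.30, adjusted p = 0.945 by limma). *Cd6*, a T cell co-receptor, had 0.34, 1.12 and 2.12 FPKM against 2.21, 2.05 and 1.94 FPKM. OP mouse 1 was the lowest in both genes. *Trac*, *Trbc1* and *Trbc2*, the constant regions of the T cell receptor, were not analysed here. OP mouse 3 had the highest value in 7 of the 12 genes, compared with 24.9% of all genes tested.

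Genes of CD8 and intraepithelial lymphocytes were all in the direction of the members, with 9 of 9 tested lower in OP mice and a median of -0.47. *Il2rb*, a receptor chain for interleukin-2 and interleukin-15, had 0.93, 0.81 and 2.36 FPKM in the OP mice and 2.42, 1.88 and 2.69 FPKM in the OR mice. *Cd96*, a receptor of T and natural killer cells, had 0.39, 0.86 and 1.59 FPKM against 1.26, 1.79 and 1.83 FPKM. In both, OP mouse 3 overlapped with the OR mice. The genes *Tcrg-C1*, *Tcrg-C2*, *Tcrg-C4* and *Trdc* of the gamma-delta receptor were not analysed here.

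Among 21 cytotoxic granule and natural killer cell genes, 9 were tested and 12 were under the filter. Of the 9, 8 were lower in OP mice and the median was -0.45. *Klrk1*, the activating receptor NKG2D, had 0.41, 0.45 and 0.54 FPKM in OP mice and 0.89, 0.77 and 1 FPKM in OR mice, with a log2 fold change of -0.36 (standard error 0.15), an unadjusted limma p of 0.0433 and an adjusted p of 0.945. Here OP mouse 3 was with the other OP mice, and the groups did not overlap. *Fcer1g*, an adaptor chain of natural killer cells and myeloid cells, had 11.2, 4.55 and 13.07 FPKM against 15.73, 16.12 and 15.26 FPKM, also without overlap. As in the other lists, these genes were named for the lowest p-values of the list, so their separation is a description and no test. Every OP mouse was below every OR mouse in 6.81% of all genes tested. Defining genes of natural killer cells were near the limit of the table: *Ncr1* had 0 to 0.37 FPKM and *Klrb1c* had 0.05 to 0.43 FPKM. The pore-forming protein *Prf1* was also low, with 0.18, 0.24 and 0.49 FPKM in the OP mice and 0.29, 0.34 and 0.74 FPKM in the OR mice.

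Regulatory T cell genes gave no common order. Of 6 tested, 5 were lower in OP mice (median -0.18). *Lrrc32*, which encodes the TGF-beta carrier GARP and is also made by endothelium, had 0.39, 0.6 and 1.19 FPKM in OP mice and 1.45, 1.73 and 2.63 FPKM in OR mice, with a log2 fold change of -0.77 (standard error 0.24), an unadjusted limma p of 0.0141 and an adjusted p of 0.945. *Tigit*, an inhibitory receptor, had 0.64, 0.09 and 1.45 FPKM against 0.85, 1.17 and 1.13 FPKM. Its OP values spanned those of the OR mice.

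In the innate lymphoid and type 17 list, 6 of 8 genes tested were lower in OP mice (median -0.20). *Il1r1*, the receptor for interleukin-1, which stromal cells also carry, had 5.21, 6 and 9.06 FPKM in OP mice and 9.68, 10.58 and 12.98 FPKM in OR mice, with an unadjusted limma p of 0.0225 and an adjusted p of 0.945. The list of interleukin-7 and common gamma chain genes, the pathway of *Il7r*, was split evenly, with 6 of 12 lower and a median of 0.01. *Bcl2*, a survival factor, stood at -0.29 on the log2 scale (standard error 0.28), and *Stat5b*, the signal transducer below the receptor, at -0.26 (standard error 0.25). The ligand *Il7* itself had 2.21, 3.06 and 2.37 FPKM in OP mice and 2.25, 2.39 and 2.69 FPKM in OR mice.

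Of the genes of lymphocyte development and naive cells, 7 of 8 tested were lower in OP mice (median -0.32). *Bcl11b*, a T cell identity factor, had 1.78, 1.84 and 2.76 FPKM in OP mice and 3.24, 2.91 and 2.9 FPKM in OR mice without overlap, with an adjusted p of 0.945 by limma. *S1pr1*, which guides lymphocytes out of lymphoid tissue and is abundant in endothelium, had 1.06, 1.38 and 2.73 FPKM against 2.91, 2.5 and 3.77 FPKM. Among the attracting ligands and adhesion genes, 10 of 13 tested were lower in OP mice (median -0.20). *Ccl21a*, a chemokine of lymphatic vessels that draws T cells, had 16.1, 19.05 and 31.31 FPKM in the OP mice and 30.61, 86.08 and 88.2 FPKM in the OR mice, with a log2 fold change of -1.49 (standard error 0.43), an unadjusted limma p of 0.00976 and an adjusted p of 0.929. *Ccl20*, an epithelial chemokine for cells with the receptor CCR6, had 9.85, 2.63 and 11.25 FPKM against 1.66, 3.05 and 2.57 FPKM. It was higher in OP mice by 1.22 on the log2 scale (standard error 0.46, adjusted p = 0.945 by limma), with OP mouse 2 inside the range of the OR mice.

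**Figure D4:**
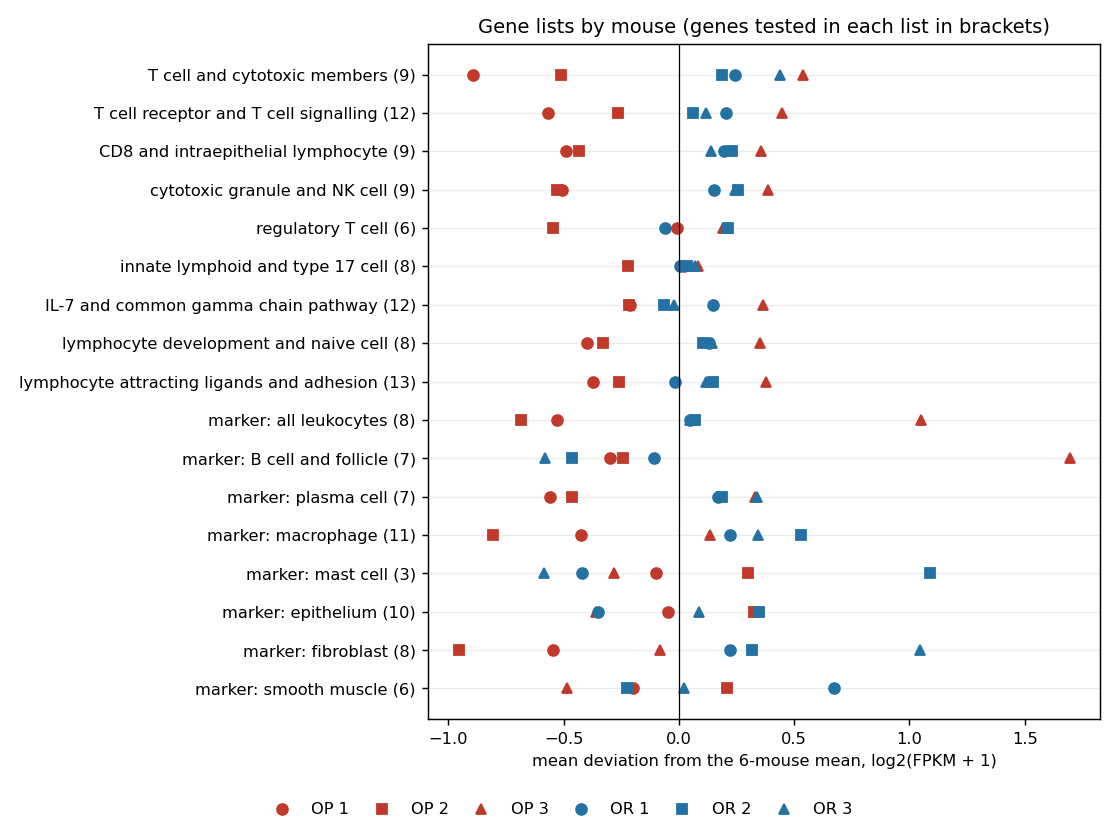
Mean deviation from the 6-mouse mean, on the log2(FPKM + 1) scale, of the genes tested in each list, with circles, squares and triangles for mice 1, 2 and 3, red for OP and blue for OR. For the members the OP mice lie at -0.89, -0.51 and 0.54 and the OR mice at 0.24, 0.19 and 0.44, and OP mouse 3 reaches 1.70 in the B cell list.

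In some marker lists of other cells OP mice 1 and 2 were the lowest, as in the members, but the place of OP mouse 3 differed between lists. OP mouse 1 or 2 held the lowest value in 8 of 8 leukocyte, 7 of 7 plasma cell, 8 of 8 fibroblast and 10 of 11 macrophage genes tested, as in 9 of 9 members tested, but in 3 of 10 epithelial and 0 of 6 smooth muscle genes. The share over all genes tested was 71.7%, so high counts are common in lists this short. In the plasma cell list the mean deviation was -0.56, -0.46 and 0.33 for OP mice 1, 2 and 3 and 0.17, 0.19 and 0.34 for OR mice 1, 2 and 3, so OP mouse 3 lay among the OR mice there. In the fibroblast list OP mouse 3 was at -0.08, below OR mice 1, 2 and 3 (0.22, 0.32 and 1.05). It was also below them in the macrophage list, at 0.14 against 0.22, 0.53 and 0.34. In the members OP mouse 3 was the highest mouse by this measure, and the leukocyte list shared this arrangement. Its mean deviation was -0.53, -0.68 and 1.05 for OP mice 1, 2 and 3 and 0.05, 0.07 and 0.05 for OR mice 1, 2 and 3. The 7 plasma cell markers tested were all lower in OP mice (median -0.42), with *Jchain*, the joining chain of secreted IgA, at 48.82, 41.64 and 91.06 FPKM in OP mice and 119.99, 130.29 and 154.38 FPKM in OR mice. Macrophage markers summed to 58.4 to 135 FPKM in OP mice and 133 to 163 FPKM in OR mice, with 10 of 11 lower and a median of -0.88. *Cd163*, a scavenger receptor of resident macrophages, had 0.44, 0.22 and 0.77 FPKM against 1.72, 2.45 and 1.67 FPKM. Fibroblast markers summed to 72.8 to 141 FPKM in OP mice and 208 to 447 FPKM in OR mice, with 8 of 8 lower and a median of -0.89. In epithelium (median 0.01, 4 of 10 lower, sums 11531.5 to 23559.2 FPKM in OP mice and 12329.8 to 25036.5 FPKM in OR mice) the groups were mixed. Much of the spread of these sums was *Car1*, from 1054.43 FPKM in OP mouse 2 to 15723 FPKM in OR mouse 2. *Epcam* stayed between 934.63 and 1187.94 FPKM. The smooth muscle markers had a median of -0.35 and 6 of 6 lower, with sums of 1391 to 2224 FPKM in OP mice and 1722 to 3195 FPKM in OR mice. Mast cell markers, of which 3 of 9 were tested, had a median of 0.14 and sums of 16.2 to 25.3 FPKM and 15.9 to 40.1 FPKM. *Iglc2* and *Tpsab1* were not analysed here, no other marker was at 0 in all mice, and the part of these cells in the members' values was not tested.

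The genes most like the CD3 chains were found by the Pearson correlation, over the 6 mice, with the mean standardised log2(FPKM + 1) of *Cd3d*, *Cd3e* and *Cd3g*. *Ctsw*, a protease of cytotoxic lymphocytes, came first of 13517 genes with r = 0.996. It had 3.12, 3.23 and 7.7 FPKM in the OP mice and 5.73, 5.64 and 6.55 FPKM in the OR mice. *Zfp777* (r = 0.992), *BC005537* (r = 0.991) and *Kcnn3* (r = 0.989) followed. With 6 mice high values are common: 118 genes reached 0.95. The other members had 0.949 (*Gzma*), 0.927 (*Cd8a*), 0.925 (*Gzmb*), 0.921 (*Il7r*), 0.918 (*Nkg7*) and 0.897 (*Cd4*). These points share libraries and their composition, and the correlations are descriptions.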

How the data were processed

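Colon RNA of 3 OP and 3 OR mice was measured as 1 library per mouse. According to the methods, the authors filtered strand-specific reads with SOAPnuke (v1.5.6), aligned them with Bowtie2 to a mouse gene set and quantified genes with RSEM. Bowtie2 is given as v2.3.4.3 in the methods and v2.2.5 in the labels, and RSEM as v1.3.1 and v1.2.12. The submitters' processing notes name HISAT2 2.0.4 and GRCm39. The authors deposited FPKM values to 2 decimals for 17778 genes, and the authors' scaling between mice beyond the per-million step is not given in the sources used here. Depth is unknown, and FPKM cannot enter the authors' count test.

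Groups and mouse numbers came from the labels. Separate libraries are taken as separate mice. Genes with at least 0.5 FPKM in at least 3 mice were kept (13520 of 17778), groups were compared on log2(FPKM + 1) with limma 3.58.1 in R 4.3.3 (limma-trend, no covariates), and q-values were adjusted over all genes tested. Single genes were tested by two-sided exact permutation tests (SciPy 1.17.1). The fit was tested on simulated data. Genes outside the members were named by rule: the called genes of each list, or otherwise the 2 with the lowest p, and the 5 most like the CD3 chains. Further genes (*Prf1*, *Ncr1*, *Klrb1c*, *Gzmc*, *Il7*, *Cd79a*, *Cd74*, *Epcam*, *Car1* and *Ptprc*) were named after their values were seen. The members and lists were chosen with earlier results of these data known. Alternatives were fits without the trend, median-of-ratios and TPM scaling, a pseudocount of 0.1, other filters, the replicate block and each mouse left out. Promoter windows were matched by symbol for 9 of 10 members in RefSeq (GRCm38.p6). Protein sequences were not used here, and some genes that the rule names are not reported here.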

Additional observations from a re-analysis of the deposited data

How the results depend on the processing

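Over 13 alternatives, 0 members were called and all members tested had a negative fold change. The median over the members, -0.51 with all 6 mice, was -0.40 under median-of-ratios scaling, -0.67 at a pseudocount of 0.1 and from -0.92 to -0.24 with each mouse left out. Median-of-ratios scaling moved the median of all genes from -0.10 to 0.01. *Cd4* was not tested when at least 1 FPKM in all 6 mice was required, and *Foxp3* was tested only without a filter.

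The count of all genes called lower in OP mice was 3. It dropped to 0 under TPM scaling, under median-of-ratios scaling, at a pseudocount of 0.1, when genes above 0 in any mouse were kept, when 1 FPKM in all 6 mice was required and under the replicate block, and was from 0 to 1 with each mouse left out. The count of genes called higher was 0 throughout; 68 genes were higher at an unadjusted limma p below 0.05. The number of members whose groups did not overlap was 0, and with each mouse left out it was from 0 to 10: 10 without OP replicate 3 (23.1% of all genes tested had every OP mouse below every OR mouse then) and 1 without OR replicate 2 (*Gzmb*, against 20.2% of all genes tested). These counts with 1 mouse left out are on the FPKM scale. The cause was not tested.

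With the replicate block, the paired fit, *Gzma* and *Gzmb* had unadjusted limma p-values of 0.0149 and 0.0216 and an adjusted p of 0.999, and 0 members were called. Equal numbers belong to different mice: deviations of same-numbered mice correlated by -0.0765 on average, against 0.0394 for mice of different numbers. Depth is unknown, and the *Foxp3* values, rounded to 2 decimals, have 1 or 2 significant digits.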
